A study of Mus musculus with 9 samples.

Results

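Mgp, Spp1 and Sox9 are 3 genes tied to the mineralisation of bone, cartilage and vessel wall. They were taken by gene symbol from a table of 10340 genes measured in mouse NIH 3T3 fibroblasts, and all 3 were found in it. They were chosen by their FPKM in these 9 libraries, which were already known to differ between the groups. Their own values are therefore given as a description, without a test.

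NIH 3T3 is an immortalised line that was first derived from mouse embryo fibroblasts. Cells in monolayer culture on plastic were transduced with a lentivirus that expresses a short hairpin RNA (shRNA), a small folded RNA that the cell processes to silence the matching transcript, and were selected for it. The shControl group carried a hairpin against red fluorescent protein, which these cells lack. The shCNKSR2_1 and shCNKSR2_2 groups carried hairpins of different sequence, both directed at Cnksr2, which encodes a scaffold protein of Ras signalling. Each group had 3 independent cultures, 9 libraries in all, and all 9 carried a hairpin and its vector. Cnksr2 itself was not analysed here, so the depletion of the target could not be read from these values. Both hairpin groups were set against the same 3 control libraries, so their differences from control are not independent of each other.

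Mgp encodes matrix Gla protein, a small secreted protein that is made by chondrocytes and vascular smooth muscle and that holds back calcification of soft tissue. It works only after vitamin K-dependent carboxylation of its glutamate residues, and it can also bind bone morphogenetic proteins (BMPs). Spp1 encodes osteopontin, an acidic phosphoprotein of bone matrix that binds hydroxyapatite and that signals to cells through integrins and Cd44. Sox9 is an HMG-box transcription factor that directs chondrocyte formation and switches on cartilage matrix genes.

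Levels are FPKM, sequenced fragments of a gene corrected for transcript length and for library size, so that levels can be compared between genes. The depth behind them is unknown, because no fragment counts were used here. Summed FPKM ran from 437208 to 450776 over the 9 libraries. The first principal component held 67.5% of the variance and kept the groups apart. On it, replicate 1 of shCNKSR2_1 stood at -1.71 and the other libraries of that group at 5.98 and 4.63, while the shControl libraries lay between -16.9 and -16.1 and those of shCNKSR2_2 between 13.4 and 13.8. Of 10 fibroblast markers, 10 were measured, from S100a4 at a mean of 4610 FPKM down to Fbn1 at 5.86 FPKM. Of the macrophage and osteoclast markers, 3 of 16 were measured, with Cd14 the highest at 5.27 FPKM and Ctsk the lowest at 1.69 FPKM. Endothelial markers (0 of 9 measured) and epithelial markers (0 of 8) were not analysed here.

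In the shControl libraries Mgp stood at 22.7, 23.5 and 24.3 FPKM. With shCNKSR2_1 it stood at 298, 227 and 245 FPKM, and with shCNKSR2_2 at 182, 185 and 169 FPKM. Every hairpin library was far above every control library, and the shCNKSR2_1 libraries all lay above the shCNKSR2_2 libraries. The group means were 23.5 ± 0.808 FPKM (SD, n = 3), 257 ± 36.6 FPKM and 178 ± 8.51 FPKM, so Mgp was 10.9-fold higher with shCNKSR2_1 and 7.60-fold higher with shCNKSR2_2. On the log2(FPKM + 1) scale the differences from control were 3.39 (SE 0.08) and 2.87 (SE 0.08). They were the highest of all 10340 genes in each comparison, where the median gene differed by -0.02 and -0.03. All these genes stood above 1 FPKM in all 9 libraries, so a gene below that in any library has no rank here. In bulk RNA such as this, a change in the number of cells that express a gene and a change in the RNA per cell cannot be told apart.

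These differences moved Mgp from somewhat above the middle of the table to near its top. In shControl 69.6% of genes had a lower mean level than Mgp and the median gene stood at 13.3 FPKM. With the hairpins, 97.7% and 96.6% of genes lay below Mgp. The gap between the highest control library and the lowest hairpin library was 202.9 FPKM for shCNKSR2_1 and 144.4 FPKM for shCNKSR2_2, many times the spread within shControl. Between the hairpins, Mgp was lower with shCNKSR2_2 by a log2 difference of -0.51 (SE 0.08), which is -30.4% of the mean with shCNKSR2_1, and the libraries were 42.7 FPKM apart at the closest.

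**Figure D1:**
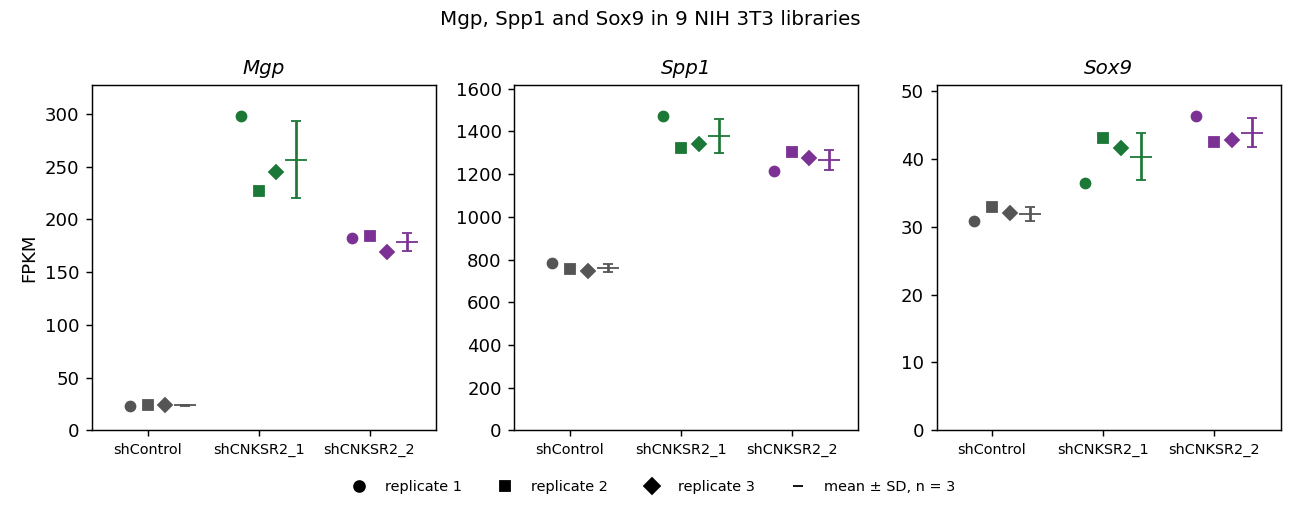
FPKM of Mgp, Spp1 and Sox9 in each of the 9 libraries, with 1 panel per gene and the 3 groups along the horizontal axis; points are libraries and bars give the mean and SD of 3 cultures. All hairpin libraries lie above the 3 control libraries in each panel, and the hairpin groups overlap for Sox9 alone.

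Spp1 was already among the most abundant transcripts in control cells, at 782, 757 and 745 FPKM. It stood at 1471, 1322 and 1342 FPKM with shCNKSR2_1 and at 1215, 1305 and 1277 FPKM with shCNKSR2_2. The 3 groups did not overlap, with the order shControl, shCNKSR2_2, shCNKSR2_1, although the hairpin groups were 17.7 FPKM apart at the closest. The means were 761 ± 18.8 FPKM (SD, n = 3), 1378 ± 80.7 FPKM and 1266 ± 46.0 FPKM. Spp1 was thus 81.0% higher with shCNKSR2_1 and 66.2% higher with shCNKSR2_2. The log2 differences were 0.85 (SE 0.05) and 0.73 (SE 0.05), in places 34 and 98 from the top among 10340 genes. In absolute terms the gain was larger than that of Mgp, and the share of all summed FPKM held by Spp1 went from 0.173% to 0.311% and 0.286%.

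The proximal promoter of Spp1 is shown because it is the entry for these 3 genes in the promoter table used, which is from RefSeq on build GRCm38.p6 and was matched by symbol. The window holds the 250 bases before the first of 2 listed start sites, chr5:104434861-104435110 on the plus strand. Capitals mark the motifs found on either strand, which do not overlap each other.
Spp1 promoter: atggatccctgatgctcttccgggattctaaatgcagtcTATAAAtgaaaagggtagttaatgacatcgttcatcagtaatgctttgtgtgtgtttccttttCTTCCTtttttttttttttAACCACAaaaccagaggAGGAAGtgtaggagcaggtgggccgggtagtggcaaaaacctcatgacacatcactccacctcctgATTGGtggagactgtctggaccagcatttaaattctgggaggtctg
The Ets motif AGGAAG began at -148 (minus strand) and at -112 (plus strand), counted in bases from the start site. The Runx motif AACCACA began at -129, a CCAAT box on the minus strand at -46 and the letters TATAAA at -211. Of all 32851 listed windows of this length, 29.5% held the Ets letters, 4.40% the Runx letters, 33.8% CCAAT and 12.4% TATAAA. The AP-1 letters TGANTCA, the E-box CACGTG and the Sox letters AACAAT, held by 6.75%, 6.02% and 9.42% of windows, were not in this one. A match of letters describes the sequence and does not show that a factor binds there.

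Sox9 stood at 30.9, 32.9 and 32.1 FPKM in shControl, at 36.5, 43.1 and 41.6 FPKM with shCNKSR2_1 and at 46.3, 42.6 and 42.8 FPKM with shCNKSR2_2. All hairpin libraries were above all control libraries, but by as little as 3.66 FPKM for shCNKSR2_1 and 9.72 FPKM for shCNKSR2_2, and the hairpin groups overlapped. The means were 31.9 ± 1.01 FPKM (SD, n = 3), 40.4 ± 3.42 FPKM and 43.9 ± 2.08 FPKM. Sox9 was 26.5% higher with shCNKSR2_1 and 37.5% higher with shCNKSR2_2, log2 differences of 0.33 (SE 0.06) and 0.45 (SE 0.06) in places 386 and 326 from the top. The hairpin groups differed by 0.12 (SE 0.06) on the log2 scale, with overlapping libraries.

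Set side by side, Spp1 had the highest level throughout, whereas Sox9 was above Mgp in every control library and below it in every hairpin library. Of all 10340 genes, 1395 (13.5%) had every hairpin library above every control library, as Mgp, Spp1 and Sox9 did. The full order shCNKSR2_1 above shCNKSR2_2 above shControl without overlap, as in Mgp and Spp1, held for 141 genes (1.36%), and the order with the hairpins exchanged held for 505 (4.88%). The relative spread between cultures was 3.44%, 2.47% and 3.17% (coefficient of variation) for Mgp, Spp1 and Sox9 in shControl, where the median gene had 3.71%. With shCNKSR2_1 it was 14.3%, 5.85% and 8.47%, each above the median gene at 4.84%. With shCNKSR2_2 it was 4.77%, 3.63% and 4.74%, also above the median gene of that group at 3.38%.

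Replicate 1 of shCNKSR2_1, which lay away from the rest of its group on the first principal component, had the highest Mgp and Spp1 of its group and the lowest Sox9. Without it, the log2 differences of shCNKSR2_1 from control were 3.27 for Mgp, 0.81 for Spp1 and 0.40 for Sox9. From that replicate alone, with the other 2 left out, they were 3.61, 0.95 and 0.19. The difference between the hairpins shifted by the same amounts, since both rest on the shCNKSR2_1 mean: without replicate 1 it was -0.40 rather than -0.51 for Mgp, -0.07 rather than -0.12 for Spp1 and 0.05 rather than 0.12 for Sox9.

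Smooth muscle is a tissue in which Mgp is abundant, and its markers differed between the groups. Of 8 markers, 3 were measured, with Acta2 the highest at a mean of 72.5 FPKM and Smtn the lowest at 18.4 FPKM. Their summed level was 127.1 to 141.5 FPKM in shControl, 151.5 to 163.6 FPKM with shCNKSR2_1 and 93.4 to 99.7 FPKM with shCNKSR2_2. With shCNKSR2_1 all 3 rose, while with shCNKSR2_2 Acta2 and Tagln fell and Smtn rose (adjusted p under 0.05 in limma). Of all 10340 genes, 13.6% rose and 19.3% fell with shCNKSR2_1, and 20% rose and 28.2% fell with shCNKSR2_2. The summed fibroblast markers were 6736 to 7002, 7551 to 7731 and 6986 to 7542 FPKM, a sum led by S100a4, and of the 10 markers 3 rose and 2 fell with shCNKSR2_1 and 3 rose and 6 fell with shCNKSR2_2. The summed markers of macrophages and osteoclasts were 9.18 to 10.4, 10.3 to 11.1 and 9.01 to 9.41 FPKM. The part of these cell types in the levels of Mgp, Spp1 and Sox9 was not tested.

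Other genes were ranked by how closely their log2 profile over the 9 libraries, set to 0 at the shControl mean, followed that of each gene. The measure was the root mean square distance on the log2 scale, over 9891 genes that were not predicted genes. It depends on the size of a change as well as on its pattern over the libraries. No gene came within 0.2 of Mgp: the nearest was Vip, which encodes vasoactive intestinal peptide, at a distance of 1.12. Vip went from a mean of 2.31 FPKM to 11.7 and 9.11 FPKM, log2 differences of 1.93 and 1.61. Pla2g7, a secreted phospholipase that degrades platelet-activating factor, came next at 1.43, followed by Ifi27l2a at 1.53, Inhba, the activin A subunit, at 1.58 and the integrin ligand Edil3 at 1.59.

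Spp1 had 41 genes within 0.2. Its nearest was Enpp1, which produces the mineralisation inhibitor pyrophosphate, at 0.06 (log2 differences of 0.80 and 0.77). Enpp1 stood at 3.68 FPKM in shControl, where the 1 added to FPKM shrinks a log2 difference more than at the 761 FPKM of Spp1. The ranking was not repeated with another added value, so the order of neighbours may depend on it. The basement membrane collagen Col4a2 followed at 0.08 with differences of 0.84 and 0.78, then Gcnt4, Ramp3 and Klhdc8a at 0.09, 0.09 and 0.11. Sox9 had 1033 genes within 0.2, the closest being Rdh10, an enzyme of retinoic acid synthesis, at 0.02 with differences of 0.33 and 0.44. Itprip, Ywhag, Psmd11 and Trim16 came next, at 0.03 to 0.04. Mgp lay 1.92 from Spp1 and 2.26 from Sox9, while Spp1 and Sox9 were 0.37 apart, so Mgp was less like the other genes than they were like each other. A short distance says that the values ran alike over these 9 libraries and no more.

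**Figure D2:**
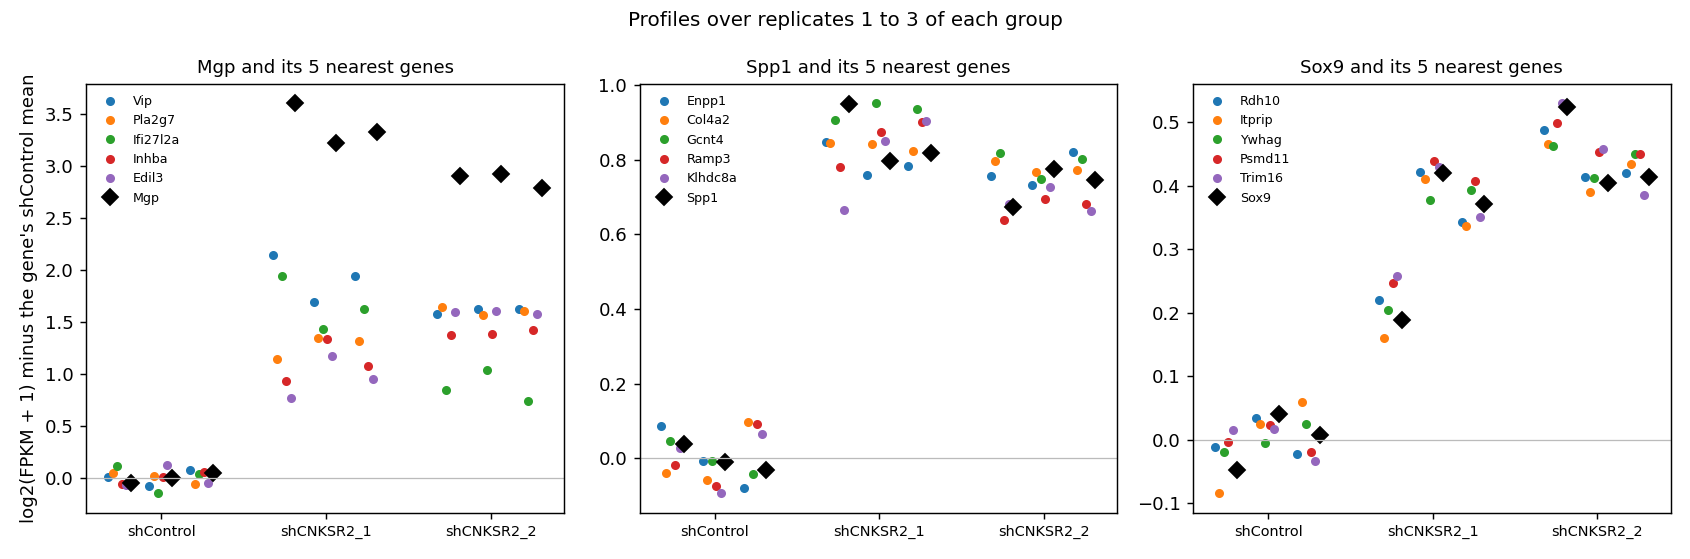
Log2(FPKM + 1) profiles over the 9 libraries, each centred on its own shControl mean, for Mgp, Spp1 and Sox9 (black diamonds) and the 5 genes nearest to each (coloured points). The neighbours of Mgp all stay below it in the hairpin libraries, at distances of 1.12 and more, whereas those of Spp1 and Sox9 run close to it, at 0.06 to 0.11 and 0.02 to 0.04.

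The genes that act with Mgp, Spp1 and Sox9 were followed in 7 lists, with the 3 genes themselves left out. Each gene was tested in limma over all 10340 genes and is said to have risen or fallen at an adjusted p under 0.05. Of the whole table, 32.8% passed with shCNKSR2_1 (13.6% rose and 19.3% fell) and 48.2% with shCNKSR2_2 (20% rose and 28.2% fell). With both hairpins, 10.6% rose and 15.2% fell. Between the hairpins 20.5% passed, 9.13% higher and 11.4% lower with shCNKSR2_2. The split depended on scaling: with shCNKSR2_1 1405 genes rose and 1991 fell, against 1794 and 1564 after median-ratio rescaling and 1661 and 1615 after quantile normalization. With shCNKSR2_2 2066 rose and 2918 fell, against 2460 and 2424 and against 2533 and 2296. Levels of listed genes are means of 3 cultures, and the SE of their log2 differences ran from 0.03 to 0.13. Of 186 listed genes 114 were measured, and the rest were not analysed here. Of these 114, 24 rose and 36 fell with shCNKSR2_1, and 21 rose and 60 fell with shCNKSR2_2.

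The first list holds the machinery that carboxylates and secretes Gla proteins, and other proteins of that kind, with 10 of 14 genes measured. With shCNKSR2_1 3 rose and 3 fell, and with shCNKSR2_2 2 rose and 6 fell, with median log2 differences of -0.04 and -0.17. Vkorc1, which recycles the vitamin K that carboxylation of Mgp consumes, stood at 14.9 ± 0.957 FPKM in shControl, 12.5 ± 0.914 FPKM with shCNKSR2_1 and 10.2 ± 1.08 FPKM with shCNKSR2_2. It fell by 0.52 on the log2 scale with shCNKSR2_2 (SE 0.07, adjusted p = 0.000195). Its fall of 0.24 with shCNKSR2_1 (adjusted p = 0.0285) did not hold without shControl replicate 2 or 3 or without shCNKSR2_1 replicate 1 or 2, where the adjusted p was 0.055 to 0.0977. Pros1, the Gla protein that serves as a cofactor in anticoagulation, fell from 27.0 to 18.9 and 14.4 FPKM (log2 differences of -0.50 and -0.87, adjusted p = 0.000189 and 1.96e-06). Calu, which encodes calumenin, an inhibitor of the carboxylase, rose from 184 to 232 and 219 FPKM (log2 differences of 0.33 and 0.25, adjusted p = 4.83e-05 and 0.000181). Fam20c, the secretory pathway kinase that phosphorylates osteopontin, rose from 4.96 to 5.88 and 6.90 FPKM (adjusted p = 0.0117 and 0.000112). The count of 3 that fell with shCNKSR2_1 was 1 without shCNKSR2_1 replicate 2.

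The second list concerns phosphate and pyrophosphate, from which mineral forms or by which it is held back, with 8 of 13 genes measured. With shCNKSR2_1 4 rose and 1 fell, and with shCNKSR2_2 5 rose and 1 fell, with median log2 differences of 0.23 and 0.34. Ank, a membrane protein that raises pyrophosphate outside the cell, stood at 48.2, 50.3 and 48.6 FPKM in shControl, at 77.8, 104 and 97.9 FPKM with shCNKSR2_1 and at 99.1, 92.5 and 94.9 FPKM with shCNKSR2_2. Every hairpin library was above every control library and the hairpin groups overlapped. The log2 differences of Ank were 0.90 (SE 0.08, adjusted p = 2.2e-05) and 0.95 (SE 0.08, adjusted p = 8e-06). Enpp1, the enzyme that releases pyrophosphate from nucleotides outside the cell, stood at 3.97, 3.65 and 3.43 FPKM in shControl, at 7.42, 6.92 and 7.05 FPKM with shCNKSR2_1 and at 6.91, 6.77 and 7.26 FPKM with shCNKSR2_2. Its hairpin libraries also lay above the controls and overlapped each other. The log2 differences of Enpp1 were 0.80 (SE 0.05, adjusted p = 1.19e-06) and 0.77 (SE 0.05, adjusted p = 8.95e-07).

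Ppa1, a cytosolic enzyme that splits pyrophosphate, rose from 69.7 to 86.8 and 92.2 FPKM (log2 differences of 0.31 and 0.40, adjusted p = 0.00021 and 1.89e-05). The phosphate exporter Xpr1 was the gene that fell, from 8.57 to 7.19 and 6.24 FPKM (adjusted p = 0.00633 and 9.41e-05). Fetub, a relative of the mineral-binding protein fetuin-A, rose from 1.39 to 2.70 and 2.23 FPKM (adjusted p = 9.22e-05 and 0.000603). The phosphate importer Slc20a2, named after its values were seen, rose with shCNKSR2_2 from 23.0 to 28.0 FPKM (adjusted p = 0.00221), and its adjusted p with shCNKSR2_1 was 0.0557. Enpp1 and Ank, which raise pyrophosphate outside the cell, thus rose together with Ppa1, which splits it inside.

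**Figure D3:**
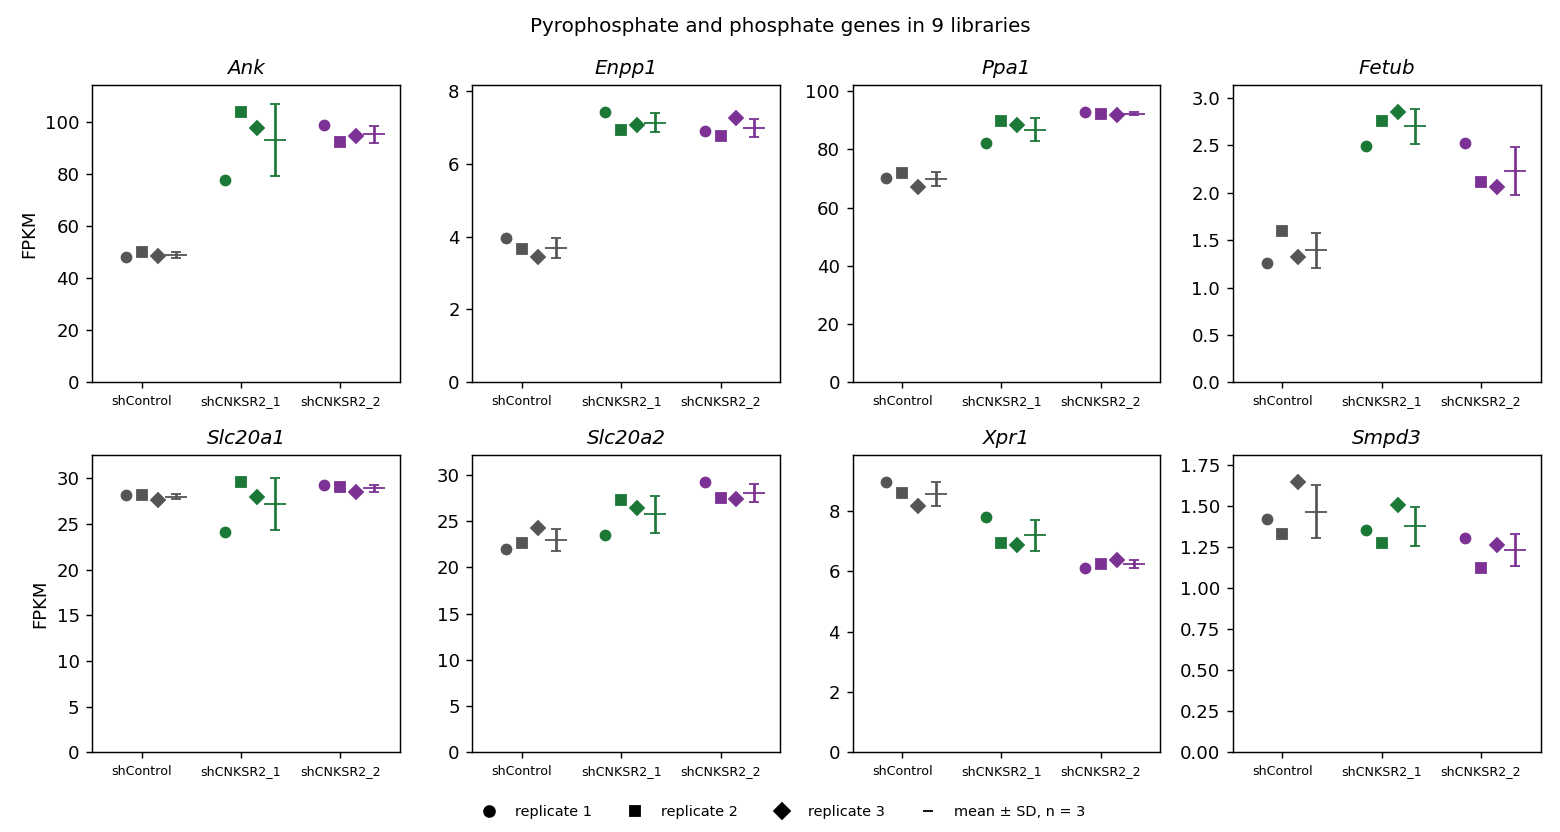
FPKM of the 8 measured phosphate and pyrophosphate genes in each of the 9 libraries, 1 panel per gene, with points for libraries and bars for the mean and SD of 3 cultures. Enpp1, Ank, Ppa1 and Fetub are higher in all hairpin libraries than in the controls, and Xpr1 is lower.

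Osteopontin signals through integrins and Cd44, and 6 of 10 such receptor genes were measured. With shCNKSR2_1 3 rose and 1 fell, and with shCNKSR2_2 4 rose and 1 fell, with median log2 differences of 0.14 and 0.33. Cd44 rose from 57.1 ± 1.21 FPKM to 71.7 ± 8.36 FPKM and 74.1 ± 1.87 FPKM (log2 differences of 0.32 and 0.37, adjusted p = 0.00467 and 0.00112). Itga8, an integrin chain with osteopontin among its ligands, rose from 1.23 to 2.49 and 3.00 FPKM (log2 differences of 0.65 and 0.84, adjusted p = 5.11e-06 and 4.55e-07). Itgb1, the beta chain that pairs with it, rose from 176 to 194 and 218 FPKM. The adjusted p of Itgb1 was 0.000177 with shCNKSR2_2 and 0.0248 with shCNKSR2_1, and the latter was 0.0666 to 0.0852 without shControl replicate 1 or 3 or shCNKSR2_1 replicate 2. Itgav and Itgb5, which form another osteopontin receptor, fell with 1 hairpin each. Itgav fell with shCNKSR2_1 from 23.8 to 20.1 FPKM (adjusted p = 0.00442) and stood at 23.4 FPKM with shCNKSR2_2. Itgb5 fell with shCNKSR2_2 from 20.0 to 14.6 FPKM (adjusted p = 0.000198) and stood at 19.8 FPKM with shCNKSR2_1. Itga5 rose with shCNKSR2_2 from 37.9 to 48.8 FPKM (adjusted p = 0.00372). With shCNKSR2_1 it stood at 42.0 FPKM (adjusted p = 0.214, or 0.000346 without replicate 1 of that group).

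BMPs, the growth factors that Mgp can bind, act through receptors and Smad proteins on Id genes, and secreted antagonists hold them back. The ligand genes Bmp2, Bmp4, Bmp6 and Bmp7 were not analysed here. Of 35 listed genes 22 were measured, of which 0 rose and 11 fell with shCNKSR2_1 and 1 rose and 10 fell with shCNKSR2_2, and 9 fell with both. In limma at an unadjusted p under 0.05, 1 gene rose with shCNKSR2_1, and after either rescaling 1 rose at an adjusted p under 0.05. The median log2 differences were -0.13 and -0.10. The antagonist Nbl1 fell most, from 16.4 ± 1.19 FPKM to 7.86 ± 0.413 FPKM and 4.69 ± 0.342 FPKM (log2 differences of -0.97 and -1.61, SE 0.06, adjusted p = 1.13e-06 and 1.92e-08). It was also lower with shCNKSR2_2 than with shCNKSR2_1 (log2 difference of -0.64, adjusted p = 0.000136). The inhibitory Smad6, itself a target of BMP signalling, fell from 6.20 to 3.48 and 3.36 FPKM (adjusted p = 1.68e-05 and 5.65e-06). Fst, which encodes the activin and BMP antagonist follistatin, fell from 5.81 to 4.26 and 4.24 FPKM, and the related Fstl1 from 128 to 98.8 and 88.2 FPKM (adjusted p at most 0.000156 in each). Bmp1, a procollagen protease despite its name, fell from 15.9 to 12.3 and 10.7 FPKM (adjusted p = 6.49e-05 and 1.69e-06). Of the Id genes, named after their values were seen, Id1 fell from 77.4 to 64.1 and 61.0 FPKM (adjusted p = 0.0101 and 0.00172). Id3 fell from 137 to 108 and 104 FPKM (adjusted p = 0.00171 and 0.000393). Id2 was not called, at 75.0, 71.8 and 73.3 FPKM. The members that fell thus include antagonists and an inhibitor as well as receptors, Smads and Id genes of the pathway. With a minimum mean of 5 FPKM, 7 rather than 11 fell with shCNKSR2_1, since fewer genes were tested.

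Of 36 partners and cartilage targets of Sox9, 9 were measured, so most of the cartilage matrix genes that Sox9 switches on were not analysed here. With shCNKSR2_1 3 rose and 3 fell, and with shCNKSR2_2 1 rose and 4 fell, with median log2 differences of -0.08 and -0.17. Sox5, which acts with Sox9 on cartilage genes, stood at 3.00 FPKM in shControl and 2.70 FPKM with shCNKSR2_1, and fell to 2.31 FPKM with shCNKSR2_2 (adjusted p = 0.00116). Sox12 fell from 9.77 to 7.79 and 5.99 FPKM, with an adjusted p of 0.000124 for shCNKSR2_2. For shCNKSR2_1 it was 0.0178, but 0.0665 without shControl replicate 3 and 0.0574 without shCNKSR2_1 replicate 2. Col27a1, a cartilage collagen, fell with shCNKSR2_2 from 2.32 to 1.73 FPKM (adjusted p = 0.00165). Col11a1 and Wwp2, named after their values were seen, rose with shCNKSR2_1 alone. Col11a1 went from 2.46 to 3.11 FPKM (adjusted p = 0.0179) and stood at 2.25 FPKM with shCNKSR2_2 (adjusted p = 0.286). Wwp2 went from 13.5 to 15.0 FPKM (adjusted p = 0.0215) and stood at 14.4 FPKM with shCNKSR2_2 (adjusted p = 0.118). Ptch1, the hedgehog receptor, fell with shCNKSR2_2 from 4.16 to 3.22 FPKM (adjusted p = 0.00618). With shCNKSR2_1 it stood at 3.45 FPKM (adjusted p = 0.0393). That call was lost without shControl replicate 1 or 3 and without replicate 2 or 3 of either Cnksr2 hairpin group. It was also lost after either rescaling and in the fit of the 2 groups compared (adjusted p = 0.0536 to 0.134 over these settings). Trps1, a GATA-type factor of the growth plate, rose with shCNKSR2_1 from 5.54 to 7.55 FPKM (adjusted p = 0.00273). At 6.79 FPKM it also passed with shCNKSR2_2 (adjusted p = 0.0155), but not without shControl replicate 3 (0.0568) or shCNKSR2_2 replicate 2 (0.0526). The counts with shCNKSR2_1 rested on single libraries: 1 rather than 3 rose without shControl replicate 2, and 1 rather than 3 fell without shControl replicate 3 or shCNKSR2_1 replicate 2. The 1 gene that rose with shCNKSR2_2 was Trps1, and 0 rose without either library named for it, against 2 after either rescaling. With a minimum mean of 5 FPKM, 1 rather than 4 fell with shCNKSR2_2, since fewer genes were tested.

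Osteoblast factors and bone matrix genes, the setting in which Spp1 is best known, moved differently with the hairpins. Of 41 listed genes 27 were measured, of which 7 rose and 3 fell with shCNKSR2_1 and 4 rose and 18 fell with shCNKSR2_2. Between the hairpins, 0 were higher and 19 lower with shCNKSR2_2, beside 11.4% lower over the table. At an unadjusted p under 0.05, limma called 1 gene higher between the hairpins. The median log2 differences were 0.03, -0.27 and -0.25. Col1a1, the main collagen chain of bone, stood at 162 ± 13.3 FPKM in shControl, 159.7 ± 17.3 FPKM with shCNKSR2_1 and 85.3 ± 1.97 FPKM with shCNKSR2_2 (adjusted p = 4.05e-06 against control and 6.35e-05 between the hairpins). The vitamin D receptor Vdr, a known activator of Spp1, stood at 6.26, 5.38 and 3.45 FPKM and fell with shCNKSR2_2 (adjusted p = 5.76e-05). The osteoblast cadherin Cdh11 stood at 27.3, 31.6 and 17.8 FPKM (adjusted p = 0.000208 with shCNKSR2_2), and the proteoglycan Vcan at 121, 108 and 77.4 FPKM (adjusted p = 0.000282). Tnc, a matrix glycoprotein, rose from 80.5 to 112 and 109 FPKM (adjusted p = 1.24e-06 in each). Of the 27 genes, 4 rose and 3 fell with both hairpins. Beside Tnc, those that rose with both were Runx2, Cbfb and Tnfrsf11b, named after their values were seen. The log2 differences of Runx2 were 0.19 and 0.09 (adjusted p = 0.00227 and 0.0461, the latter near the threshold). Those of Cbfb were 0.17 and 0.21 (adjusted p = 0.00883 and 0.00164). Those of Tnfrsf11b were 0.40 and 0.23 (adjusted p = 7e-05 and 0.00154). Spp1 was therefore higher with both hairpins while Col1a1 was lower with 1 of them. The count of 3 that fell with shCNKSR2_1 was 1 without shControl replicate 1 or 3, shCNKSR2_1 replicate 2 or shCNKSR2_2 replicate 2 or 3, after median-ratio rescaling and in the fit of the 2 groups compared, and 6 without shCNKSR2_1 replicate 1. Without shCNKSR2_1 replicate 1 Vdr and Vcan fell with shCNKSR2_1 too (log2 differences of -0.32 and -0.31, adjusted p = 0.000416 and 0.000604), and without shCNKSR2_1 replicate 3 Cdh11 rose (log2 difference of 0.26, adjusted p = 0.0475).

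Of 37 transcription factors known to act on Mgp, Spp1 or Sox9 or on their pathways, 32 were measured. With shCNKSR2_1 4 rose and 14 fell, and with shCNKSR2_2 4 rose and 20 fell, with median log2 differences of -0.10 and -0.17. Among the AP-1 genes, Jun rose from 41.1 to 55.9 and 57.3 FPKM (adjusted p = 7.6e-05 and 2.26e-05), while Junb fell from 34.5 to 23.2 and 20.0 FPKM (adjusted p = 9.95e-05 and 5.65e-06). The Ets family gene Etv4, a common target of Ras and Erk signalling, rose from 13.8 ± 0.272 FPKM to 22.4 ± 4.01 FPKM and 25.7 ± 1.43 FPKM (adjusted p = 0.000738 and 6.04e-05). Ets1 and Ets2, named after their values were seen, each fell with 1 hairpin. Ets1 fell with shCNKSR2_1 from 26.0 to 21.8 FPKM (adjusted p = 0.0012) and stood at 27.3 FPKM with shCNKSR2_2. Ets2 fell with shCNKSR2_2 from 21.3 to 16.2 FPKM (adjusted p = 0.000199) and stood at 21.7 FPKM with shCNKSR2_1. Nfkb1, a subunit of NF-kappaB, fell from 27.5 to 18.7 and 19.6 FPKM (adjusted p = 1.47e-06 and 1.96e-06). Stat3, which carries cytokine signals to the nucleus, fell with shCNKSR2_2 from 33.3 to 18.2 FPKM (adjusted p = 1.96e-05). With shCNKSR2_1 it stood at 28.0 FPKM (adjusted p = 0.0391, but 0.0523 to 0.137 without any single library of shControl or shCNKSR2_2 or without shCNKSR2_1 replicate 2 or 3). The count of 14 that fell with shCNKSR2_1 dropped to 7, 9 and 9 without shControl replicates 1, 2 and 3, to 8 and 9 without shCNKSR2_1 replicates 2 and 3, to 8 after median-ratio rescaling and to 9 in the fit of the 2 groups compared. None of these levels shows which factors were active on the promoters of Mgp, Spp1 or Sox9.

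**Figure D4:**
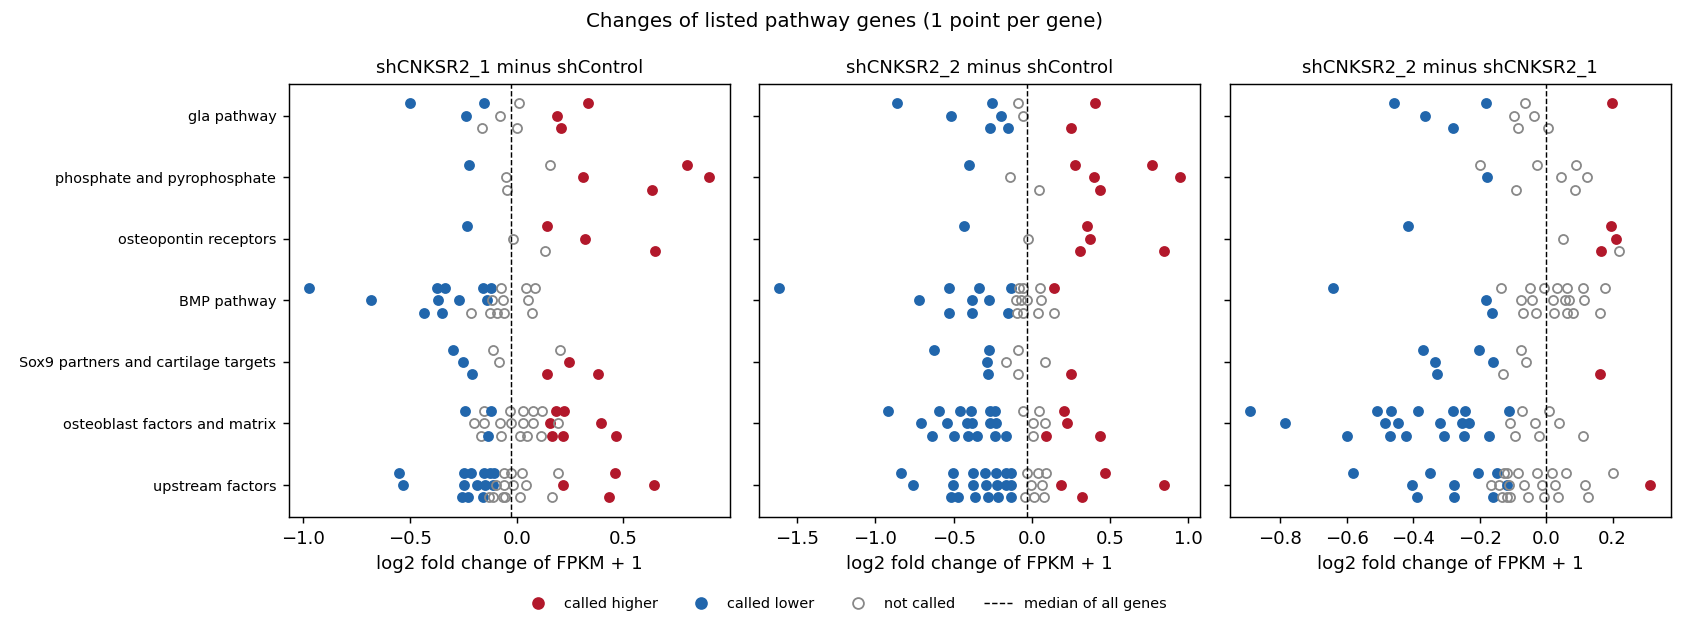
Log2 differences on the log2(FPKM + 1) scale for each measured gene of the 7 lists in 3 comparisons (shControl subtracted from either hairpin, and shCNKSR2_1 subtracted from shCNKSR2_2); red and blue points passed an adjusted p under 0.05 upward and downward, open points did not, and the dashed line is the median of all 10340 genes. The phosphate and pyrophosphate list lies mostly to the right in both hairpin comparisons, with medians of 0.23 and 0.34, and the osteoblast list lies to the left with shCNKSR2_2, with a median of -0.27.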

How the data were processed

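RNA of 9 NIH 3T3 cultures was taken up with Qiagen miRNeasy and made into Illumina TruSeq Stranded mRNA libraries, per the labels' protocols. The authors deposited FPKM values, 1 column per library and 10340 genes by symbol. STAR 25.1b, Cufflinks 2.2.1 and mouse build mm9 are named per the submitters' processing notes, while the role of each and the annotation are not given in the sources used here. Every value was above 1 FPKM, depth is unknown, so counting error could not be given.

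Values were taken to log2(FPKM + 1), a scale that understates changes of genes near 1 FPKM. All libraries entered 1 limma 3.58.1 model in R 4.3.3 with 3 group means (lmFit, then eBayes with trend=TRUE, 6 residual degrees of freedom, two-sided). A minimum mean of 1 FPKM removed 0 genes. The Benjamini-Hochberg adjustment covered the 10340 genes of a comparison. SE is the moderated one. The procedure was tested on simulated data.

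The 3 genes, the 7 pathway lists and the marker lists were chosen with earlier results of these data known. Of a list, every measured gene was named where 6 or fewer were measured. Otherwise up to 5 called genes were named, in order of the mean absolute change with the hairpins. The 5 nearest genes of each of the 3 were named, leaving out predicted genes. Motifs were searched on both strands of the 250 bases before each RefSeq start. Alternatives were a pseudocount of 0.1, no minimum, a minimum mean of 5 FPKM, median-ratio rescaling, quantile normalization, no variance trend, fits on the 2 groups compared, the replicate number as a block, and leaving out libraries.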

Additional observations from a re-analysis of the deposited data

Results flagged for a closer look

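Gas6, a Gla protein that activates the Axl family of receptors, was called in opposite directions by the hairpins. It stood at 3.12, 3.27 and 3.25 FPKM in shControl, at 4.08, 3.61 and 3.74 FPKM with shCNKSR2_1 and at 2.30, 2.54 and 2.68 FPKM with shCNKSR2_2. The groups did not overlap, and the test of the difference between the hairpins gave -0.46 on the log2 scale (limma, SE 0.05, adjusted p = 0.000429). Against control the differences were 0.19 (adjusted p = 0.0205) and -0.27 (adjusted p = 0.00215). The first did not hold without shControl replicate 1 (adjusted p = 0.0722) or shCNKSR2_1 replicate 1 (0.0517).

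Thbs1, which encodes the matrix protein thrombospondin-1, was also called in opposite directions by the hairpins. It stood at 81.5, 83.2 and 85.3 FPKM in shControl, at 113, 90.0 and 89.5 FPKM with shCNKSR2_1 and at 64.0, 63.2 and 64.1 FPKM with shCNKSR2_2. The hairpins differed by -0.60 on the log2 scale (limma, SE 0.07, adjusted p = 0.000526). The difference of 0.22 between shCNKSR2_1 and shControl (adjusted p = 0.0435) did not hold without any single library of shControl or shCNKSR2_2 (adjusted p = 0.0569 to 0.119). Nor was it called after quantile normalization, in the fit of the 2 groups compared or without the variance trend (adjusted p = 0.0914, 0.0821 and 0.0506). Over the table, 45 genes (0.435%) were called in opposite directions by the hairpins. Thbs1 was named after its values were seen.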

How the results depend on the processing

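Over 162 values of Mgp, Spp1 and Sox9 under the other settings, 156 moved by less than the spread between replicates and 0 changed sign. Many of these could not move, because some settings leave a difference of 2 group means as it was. Such settings were no minimum, a minimum mean of 5 FPKM, no variance trend, fits on the 2 groups compared and the replicate block. Leaving out a library of the group not compared is another. The 6 values that moved by more than this spread came from keeping replicate 1 alone of shCNKSR2_1. There that library is assumed to vary like the others. The differences from control were then 3.61 for Mgp, 0.95 for Spp1 and 0.19 for Sox9, and those between the hairpins -0.74, -0.22 and 0.26. That setting called 1860 genes with shCNKSR2_1, 18 listed genes lower with it, and 17 listed genes higher between the hairpins (main count 6), and the cause was not tested. With each library left out in turn, Mgp ranged from 3.27 to 3.47 with shCNKSR2_1, from 2.85 to 2.91 with shCNKSR2_2 and from -0.60 to -0.40 between the hairpins. Over the same fits 1208 to 2333 genes were called between the hairpins (main count 2121), with 1231 without shCNKSR2_2 replicate 2 and 1208 without shCNKSR2_2 replicate 3. Listed genes called there were 2 to 7 higher and 28 to 43 lower (main counts 6 and 43). The lowest were 2 higher without shCNKSR2_2 replicate 2 or 3 and 28 lower without the latter, and without shCNKSR2_1 replicate 1 3 were higher. Of 1974 values of named genes, 1857 kept their call, 103 lost it, 14 gained one and 0 reversed.

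Deviations of libraries with the same replicate number correlated at 0.12, 0.184 and 0.428 between shControl and shCNKSR2_1, but at -0.319, 0.189 and -0.213 between shControl and shCNKSR2_2 and at -0.127, 0.138 and -0.162 between the hairpins. In 8 of 18 comparisons a library correlated best with its own number, where 6 would do so in unpaired groups. The numbers were therefore not taken to pair the libraries over the 3 groups. With the replicate number as a block, 3205, 4827 and 1944 genes were called in the 3 comparisons. Every group holds each number, so the block can change the SE but not a difference of means. The values of Mgp, 3.39, 2.87 and -0.51, were therefore bound to be the same. Among named genes the block ended 1 call, that of Sox5 between the hairpins (adjusted p = 0.07).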
